A study of Nicotiana tabacum with 30 samples.

Results

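Leaves of the tobacco mutant M28 were compared with leaves of its parent cultivar K326 after 2 h of drought, and the differences that were already there at 0 h were separated from those that appeared or disappeared in between. M28 was obtained from K326 by mutagenesis with ethyl methanesulfonate (EMS), a chemical that mainly causes single-base changes scattered over the genome, and the submitters describe it as more resistant to drought. The comparison uses 6 of the 30 libraries of the series, 3 of M28 at 2 h and 3 of K326 at 2 h. The 0 h libraries, 3 of each genotype and labelled as controls, served to date the differences, and the libraries of 1, 4 and 8 h to follow them. All plants were grown in soil in pots in an incubator and fully watered before treatment. The protocol names natural drought and simulated drought with mannitol, and the labels do not say which of these a library had. M28 is 1 mutant line, so the mutation behind its drought phenotype and any other mutation it carries cannot be told apart. Both genotypes at 2 h share the same labelled time of drought, but the sample titles give no clock time or day of sampling. Whether the genotypes were sampled at the same time of day is therefore unknown. A change from 0 to 2 h mixes drought with time of day. Nothing in the labels ties a library to separate plants beyond the pots that the protocol describes, and p-values therefore measure only how these libraries vary, part of which may be technical.

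Leaves that lose water make abscisic acid, a hormone that closes the stomata and switches on protective genes, such as those of dehydrins and of enzymes that make osmolytes, while genes of photosynthesis and growth are often turned down. A plant can tolerate drought better because it responds faster or more strongly, or because its leaves differ before any water is lost. The tables used here do not name the genes: 0 of 35519 gene IDs were found in the RefSeq table, so none can be assigned to these pathways, the leaf identity of the samples could not be checked with marker genes, and genes are given by ID. Tobacco is an allotetraploid with near-identical gene copies from its ancestral species, and reads of such copies may have been split between IDs.

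Expression was measured as FPKM (fragments per kilobase of gene, scaled to the mapped fragments of the library) and analysed as log2(FPKM + 1) for the 19599 genes that averaged 1 FPKM or more across all 30 libraries. Differences below are M28 minus K326 on this scale, which understates those of low genes, and a gene was called at a Benjamini-Hochberg adjusted p below 0.05 in limma. The FPKM totals were 785159 to 791875 in the M28 libraries at 2 h and 829871 to 838251 in those of K326, and the depth in reads is unknown. The Pearson correlation of log2 values between replicates lay between 0.984 and 0.989 over the 12 pairs at 0 and 2 h.

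At 2 h, 5336 genes were called, 27.2% of those tested, of which 3855 (19.7% of those tested) were higher and 1481 (7.56%) were lower in M28. A difference of at least 2-fold was called for 655 genes (3.34%), 393 higher (2.01%) and 262 lower (1.34%). Fewer genes reached 2-fold at 2 h than at 0 h, where 1070 (5.46%) did, and the counts at 1, 4 and 8 h were 759 (3.87%), 770 (3.93%) and 631 (3.22%). The share of called genes that were higher in M28 depended on the scaling. It was 72.2% as deposited, 47.8% under median-of-ratios scaling, 54.2% under quantile normalization and 83.2% with library totals made equal. In the same order, the genes called 2-fold split into 393 higher and 262 lower, 316 and 328, 344 and 324, and 452 and 220. The median difference of all genes moved from 0.10 in the deposited values to 0.00 with median-of-ratios scaling and to 0.17 with equal totals. For 3254 genes the call and its direction were the same under all 4 scalings, 2162 higher and 1092 lower in M28.

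**Figure D1:**
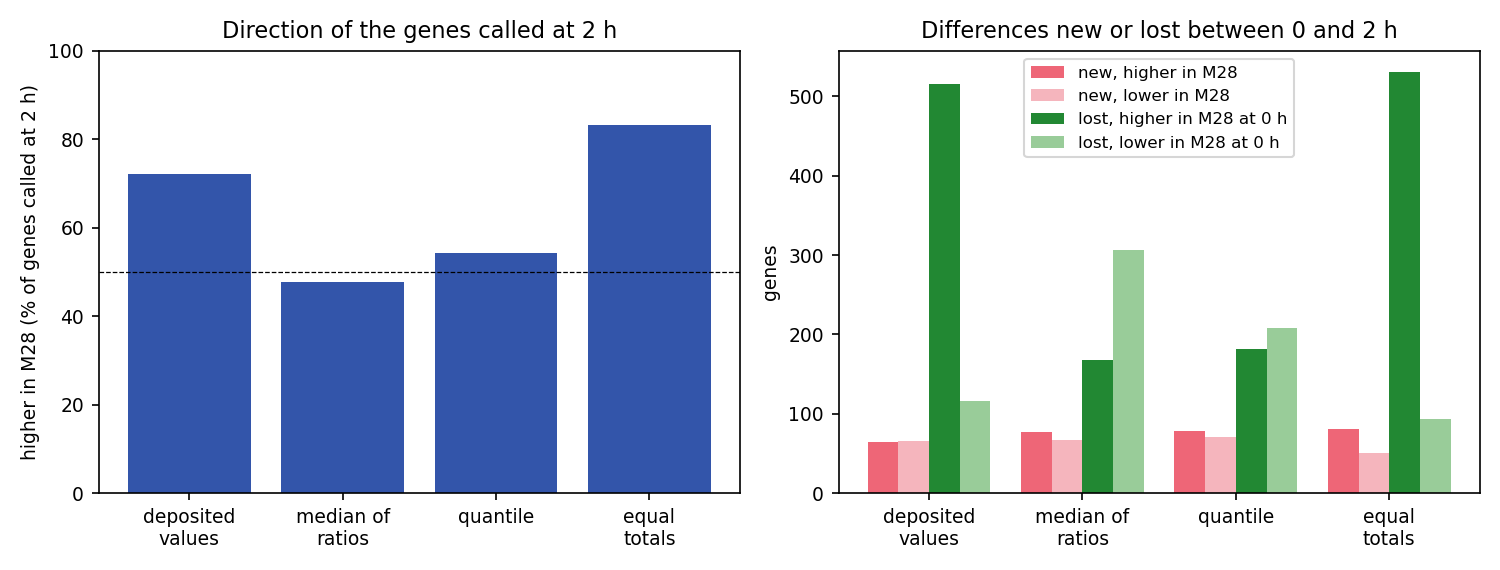
Left, the share of genes called at 2 h that were higher in M28 (%), under the deposited values and 3 other scalings, with a dashed line at equal shares. Right, the number of differences new at 2 h or lost by 2 h in each direction under the same scalings. The share ran from 47.8 to 83.2%, and the lost genes were mostly higher in M28 at 0 h with the deposited values (516 against 116) and mostly lower under median-of-ratios scaling (168 against 306).

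Direction also varied with the level of expression. Among genes with a mean of 5 to 20 FPKM, 78.1% of the 2011 genes called were higher in M28, and among the 1182 genes at 100 FPKM or more, 526 were called and 42.8% of these were higher. Median-of-ratios scaling gave 54.7 and 21.5% for these shares, quantile normalization 53.4 and 54.97%, and equal totals 87.4 and 59.1%. Of the 100 genes with the highest mean FPKM over all libraries, 41 were called lower and 9 higher in M28 at 2 h. These calls are from the deposited values, where 7.56% of all tested genes were lower and 19.7% higher. The 100 genes had a median difference of -0.28 at 2 h and -0.47 at 0 h. Their share of the FPKM total at 2 h was 29.5% ± 0.829 (SD, n = 3) in M28 and 34.7% ± 0.675 in K326, and the genotypes did not overlap. At 0 h they had held 26.1 to 30.9% in M28 and 34.4 to 38.8% in K326. Of the 50 called at 2 h, 45 were called in the same direction at 0 h, beside 73.6% of all genes called at 2 h. None was new at 2 h, but only 2.44% of all genes called at 2 h were, so this says little.

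Each gene called at 2 h was then set against the 0 h libraries, which share no library with the 2 h comparison. Both contrasts took the spread of each gene from the same fit of all 30 libraries. Their calls are therefore not independent, and the backgrounds below do not allow for this. A difference was taken as already present when it was called at 0 h in the same direction. It was taken as new when it was not called at 0 h and the change of the difference from 0 to 2 h was itself called (the interaction of genotype and time). Most of the genes called at 2 h were already different at 0 h. Of the 5336 genes, 3926 (73.6%) were called at 0 h in the same direction, 3103 higher and 823 lower in M28, beside a background of 47% of all genes called at 0 h, 38.3% higher and 8.71% lower. Among genes called 2-fold at 2 h the share was 83.8% (549 of 655). New differences numbered 130 (2.44%), 64 higher and 66 lower. A further 1206 genes (22.6%, and 6.15% of those tested) were called at 2 h alone without a called interaction, so they could not be placed, and 74 were called in opposite directions at the 2 times (0.378% of those tested). Viewed from 0 h, the 3926 genes were 42.6% of the 9212 called there. Another 4580 (49.7%) were not called at 2 h and had no called interaction, so they could not be placed as kept or lost. Under all 4 scalings 1917 of the 3926 (48.8%) were present in the same direction, 1327 higher and 590 lower in M28.

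**Figure D2:**
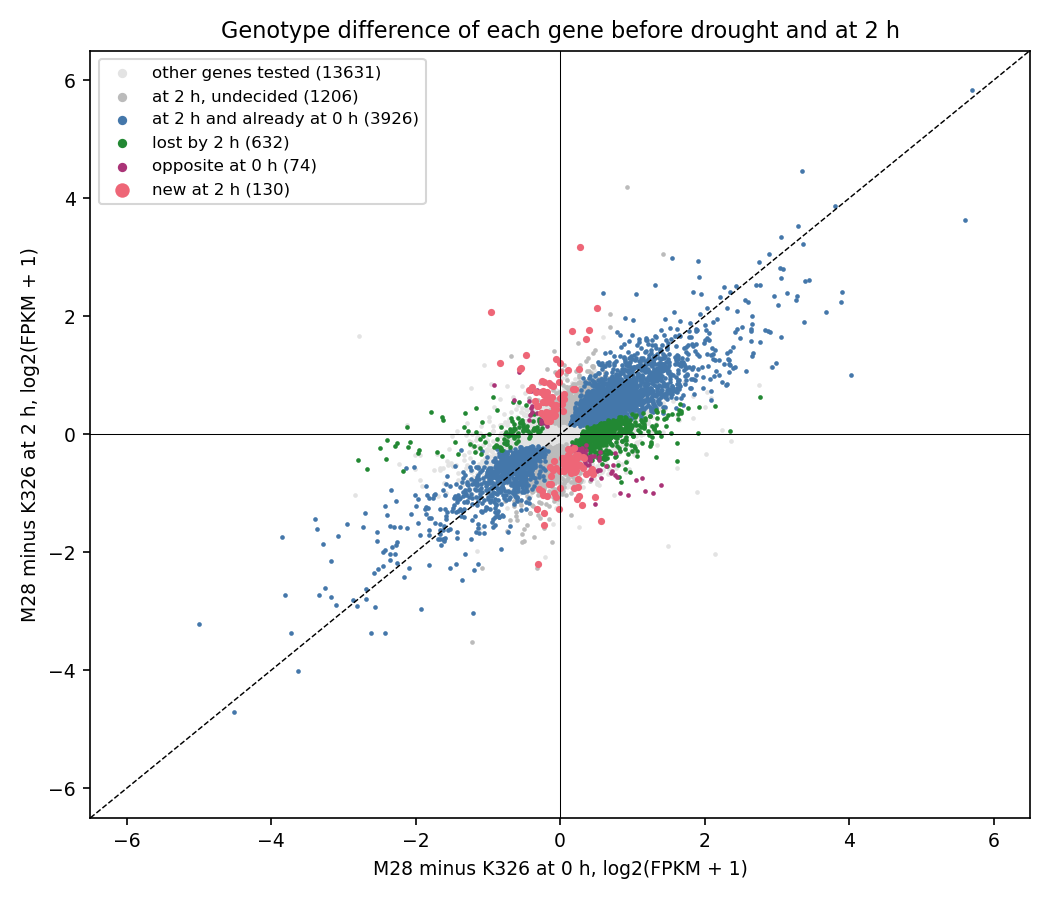
Difference of each of the 19599 genes between M28 and K326 at 0 h (horizontal) and at 2 h (vertical), both in log2(FPKM + 1), coloured by class, with a dashed line where the differences are equal. The 3926 genes present at both times lie along the diagonal, the 130 new genes near 0 on the horizontal axis and the 632 lost genes near 0 on the vertical axis.

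The interaction was called for 1090 genes (5.56%). Of these, 632 had been called at 0 h and were no longer called at 2 h, and they are referred to as lost. Among the 3926 genes present at both times the interaction was called for 250, and the difference was smaller at 2 h in 232 of them and larger in 18. Under median-of-ratios scaling these counts were 159 and 18, under quantile normalization 113 and 18, and with equal totals 310 and 18. The difference at 2 h was the smaller one for 71.2% of all 3926 genes, and for 63.1 to 79.5% under 22 alternative settings. Across the 19599 genes, which are not independent replicates, the differences at 0 and 2 h had a Pearson correlation of 0.709. The interaction was called for 1480, 719 and 646 genes when M28 0 h replicates 1, 2 and 3 were left out in turn.

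Among the genes present at both times, 2 in each direction are named, those with the largest differences at 2 h within the limits for named genes. Each was far lower, or listed at 0, in 1 of the genotypes. Nitab4.5_0001476g0060 stood at 200.4, 208 and 179 FPKM in the M28 libraries at 2 h and at 1.23, 2.72 and 3.97 FPKM in those of K326. The genotypes were far apart in every library, with a log2 difference of 5.83 (SE 0.274, adjusted p = 2.5e-14) at 2 h and 5.71 at 0 h. Nitab4.5_0000159g0130 had 22.8, 18.7 and 21.5 FPKM in M28 and was listed at 0 in the 3 K326 libraries at 2 h (adjusted p = 3.3e-20). In M28 it also rose between 0 h, with a mean of 9.20 FPKM (SD 0.809, n = 3), and 2 h, with 21.0 ± 2.10 FPKM (log2 change 1.11, SE 0.112, adjusted p = 3.55e-08), and it stood at 24.3 ± 0.973 FPKM at 4 h, while K326 stayed listed at 0 apart from a trace in 1 library at 4 h.

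In the other direction, Nitab4.5_0005041g0010 had 29.7, 23.5 and 22.6 FPKM in the K326 libraries, whereas every M28 library listed it at 0 (adjusted p = 3.3e-20). It showed no called change from 0 to 2 h in K326 (log2 change 0.19, adjusted p = 0.217). Nitab4.5_0001107g0060 had 20.2, 22.0 and 19.8 FPKM in K326 and 0.370, 0.235 and 0.449 FPKM in M28. Its log2 difference was -4.01 (SE 0.116, adjusted p = 4.78e-19) at 2 h and -3.63 at 0 h. All 4 genes kept their call and direction under each of 22 alternatives. A complete contrast, with a gene listed at 0 in all libraries of a genotype at 2 h, was rare. At 2 h, 9 genes were listed at 0 in all M28 libraries while every K326 library had at least 1 FPKM, and 12 genes showed the reverse. Of these, 5 and 6 were in the same state at 0 h, and 3 of each at all 5 times. None of the tested genes among them was new at 2 h, but only 2.44% of all genes called at 2 h were, so this says little.

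**Figure D3:**
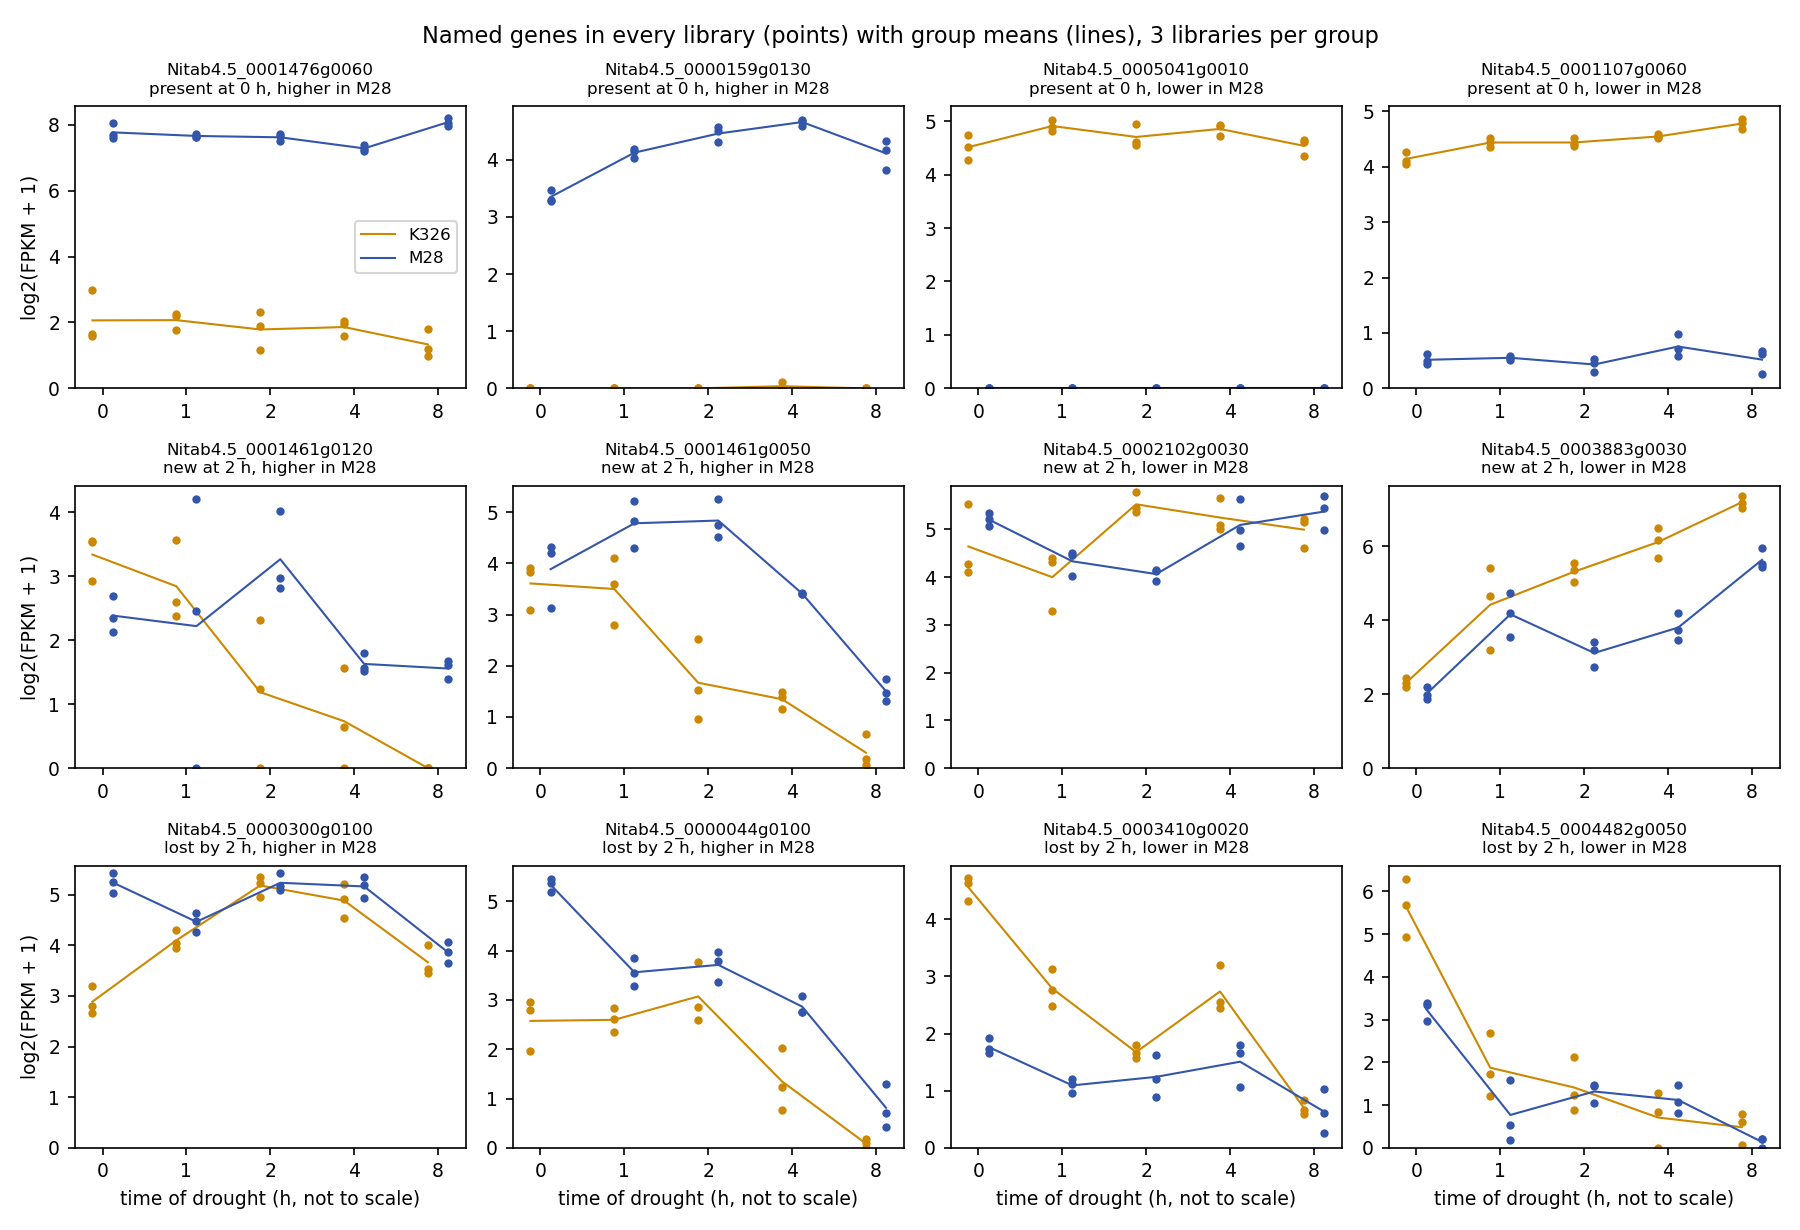
Level of the 12 named genes in log2(FPKM + 1) at 0, 1, 2, 4 and 8 h in K326 and M28, with 1 point per library and lines through the means of 3 libraries. The first row holds genes present at 0 h, whose genotypes stay apart at all 5 times, the second genes new at 2 h, and the third genes lost by 2 h.

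The 130 new genes (0.663% of those tested) arose in more than one way. Of the 64 that were higher in M28 at 2 h, 29 had fallen in K326 without a called change in M28, 15 had risen in M28 without a called change in K326, 12 had fallen in both and 8 had risen in both. Of the 66 that were lower in M28, 31 had risen in K326 alone, 24 had fallen in M28 alone, 5 had risen in both, and 5 had risen in K326 and fallen in M28. These changes share libraries with the contrasts that chose the genes and are a description. Over all genes, 34.5% were called from 0 to 2 h in K326, 24.1% rising and 10.4% falling, and 24.1% in M28, 11.5% rising and 12.6% falling. The share of all genes called in a single genotype was not worked out. The number of new genes was 144, 149 and 131 under the other scalings, but its members changed. Of the 130 genes, 45 were new again under median-of-ratios scaling, 64 under quantile normalization and 97 with equal totals, and 26 were new under all 4, 16 higher and 10 lower in M28. Without K326 2 h replicate 3 the number was 82.

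Nitab4.5_0001461g0050 was an example of a fall in K326 that M28 did not show by 2 h. In K326 it went from 14.0, 13.3 and 7.49 FPKM at 0 h to 1.87, 4.77 and 0.938 FPKM at 2 h (log2 change -1.94, SE 0.352, adjusted p = 0.000105). In M28 it had 7.77, 17.5 and 19.0 FPKM at 0 h and 25.9, 21.8 and 37.1 FPKM at 2 h (log2 change 0.95, adjusted p = 0.0503). The genotypes overlapped at 0 h and did not at 2 h, and the difference of the changes was 2.89 (SE 0.497, adjusted p = 0.00114). The level in M28 came down later, to 9.63 ± 0.0685 FPKM (SD, n = 3) at 4 h and 1.85 ± 0.435 FPKM at 8 h, and K326 stood lower at both times, at 1.56 ± 0.310 and 0.253 ± 0.285 FPKM.

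A second gene with the same scaffold field in its ID, Nitab4.5_0001461g0120, had the largest interaction among the new genes, but at low precision. Its K326 libraries had 10.7, 10.6 and 6.59 FPKM at 0 h, and at 2 h replicates 2 and 3 had 3.97 and 1.37 FPKM and replicate 1 was listed at 0. In M28 it had 3.34, 5.41 and 4.09 FPKM at 0 h and 5.995, 6.81 and 15.2 FPKM at 2 h. The difference of the changes was 3.03 (SE 0.899, adjusted p = 0.0456), and the adjusted p rose above 0.05 in 14 of 21 alternatives, up to 0.139.

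Among the new genes that were lower in M28, Nitab4.5_0003883g0030 rose from 0 to 2 h in both genotypes. It had 3.90, 3.60 and 4.47 FPKM in K326 at 0 h and 31.7, 40.0 and 46.1 FPKM at 2 h, and in M28 2.95, 3.55 and 2.63 FPKM at 0 h and 5.69, 8.19 and 9.63 FPKM at 2 h. The rise was 3.00 (SE 0.349) in K326 and 1.11 (SE 0.349) in M28 on the log2 scale, and the groups were apart at both times, by little at 0 h and by more at 2 h. The interaction was -1.89 (SE 0.494, adjusted p = 0.0222), with adjusted p values of 0.0586, 0.0633 and 0.0588 without M28 0 h replicate 2, M28 2 h replicate 1 and K326 2 h replicate 3. At 8 h the K326 libraries averaged 146 ± 16.2 FPKM (SD, n = 3) and the M28 libraries 49.4 ± 10.1 FPKM.

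Nitab4.5_0002102g0030 differed at 2 h and not at the times around it. It had 39.9, 42.4 and 54.1 FPKM in K326 at 2 h and 16.4, 16.8 and 14.1 FPKM in M28, with no overlap (log2 difference -1.46, SE 0.310, adjusted p = 0.00099). At 0 h the libraries had 16.3, 45.4 and 18.3 FPKM in K326 and 32.7, 39.6 and 36.0 FPKM in M28, and they overlapped. The interaction was -2.03 (SE 0.438, adjusted p = 0.00691). The differences at 1, 4 and 8 h were 0.33, -0.15 and 0.38, and none was called (adjusted p = 0.412, 0.725 and 0.379).

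The libraries of 1, 4 and 8 h were not in the contrasts that chose the genes, and they describe how lasting the differences were. They did enter the mean filter and the shared estimate of spread, so they are not independent of the choice. With only the 0 and 2 h libraries fitted, 195 genes were new, 93 of them among the 130. Of the 64 new genes higher in M28, 31 were called higher at 1 h, 33 at 4 h and 21 at 8 h, beside backgrounds of 31.9, 28.4 and 21.5% of all genes called higher at these times. Of the 66 lower in M28, 23, 33 and 37 were called lower, beside 7.11, 8.19 and 6.96% of all genes. At none of the 3 times were 20 of the 64 and 21 of the 66 called in the direction of 2 h, and 13 and 14 were called at all 3. The shares of all genes called at all 3 times or at none were not worked out. These counts therefore have no background and do not show whether the new genes lasted more often than others. Of the genes present at 0 and 2 h, those called again in the same direction numbered 2526, 2568 and 2055 of the 3103 higher genes at 1, 4 and 8 h and 616, 660 and 528 of the 823 lower genes. For the 16 new genes at least 2-fold higher at 2 h, the median difference was 0.75, 1.08 and 0.57 at 1, 4 and 8 h. The median of all genes was 0.20, 0.17 and 0.13 at these times. The medians of the 16 genes at 0 and 2 h, 0.00 and 1.24, come from the times that chose the genes. For the 348 higher genes with a 2-fold difference already present, the median difference was 1.27, 1.32 and 1.14 at 1, 4 and 8 h.

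**Figure D4:**
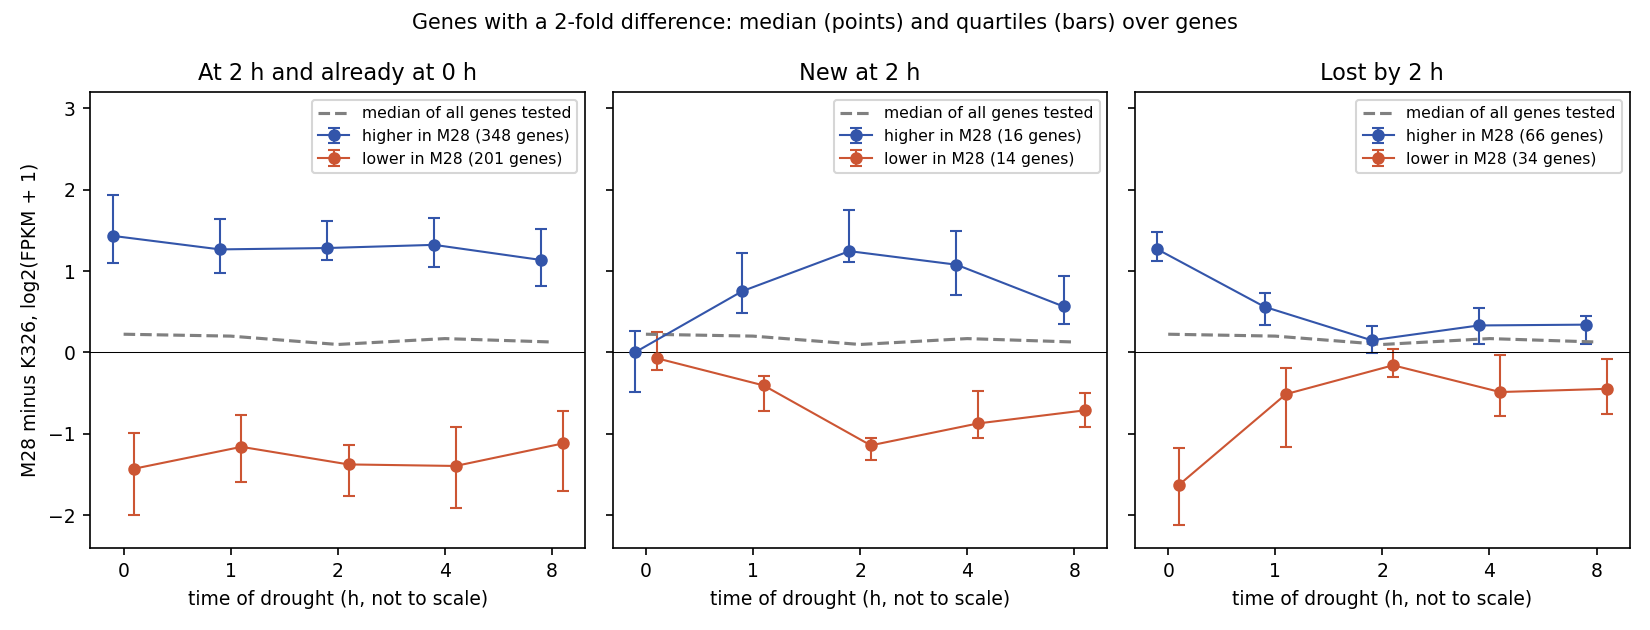
Difference between M28 and K326 in log2(FPKM + 1) at the 5 times for genes with a 2-fold difference that was present at both 0 and 2 h, new at 2 h or lost by 2 h, as the median over genes with quartile bars. The genes were chosen by contrasts of the 0 and 2 h libraries, in a fit whose spread came from all 30 libraries. For the genes higher in M28, the medians at 1, 4 and 8 h are 1.14 or more for present genes, from 0.57 to 1.08 for new genes and from 0.33 to 0.56 for lost genes.

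The lost differences outnumbered the new ones, with 632 genes (3.22% of those tested). With the deposited values 516 of them had been higher and 116 lower in M28 at 0 h, against 168 and 306 under median-of-ratios scaling, 182 and 208 under quantile normalization and 531 and 93 with equal totals. The median interaction over all tested genes was -0.13 as deposited and 0.00 under median-of-ratios scaling. Under all 4 scalings 179 genes were lost in the same direction, 103 higher and 76 lower in M28 at 0 h. Of the 103, 53 had risen in K326 without a called change in M28, 15 had fallen in M28 without a called change in K326, and 20 had changed in both in opposite directions. Of the 76, 30 had fallen in K326 alone, 11 had risen in M28 alone and 28 had changed in both in the same direction. These changes, too, come from the libraries that chose the genes. Of all tested genes, 24.1% rose and 10.4% fell in K326, and 11.5% rose and 12.6% fell in M28. The share of all genes called in a single genotype was not worked out, and whether these counts go beyond it was not tested. Without M28 0 h replicates 1, 2 and 3 in turn, the lost genes numbered 862, 400 and 353.

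**Figure D5:**
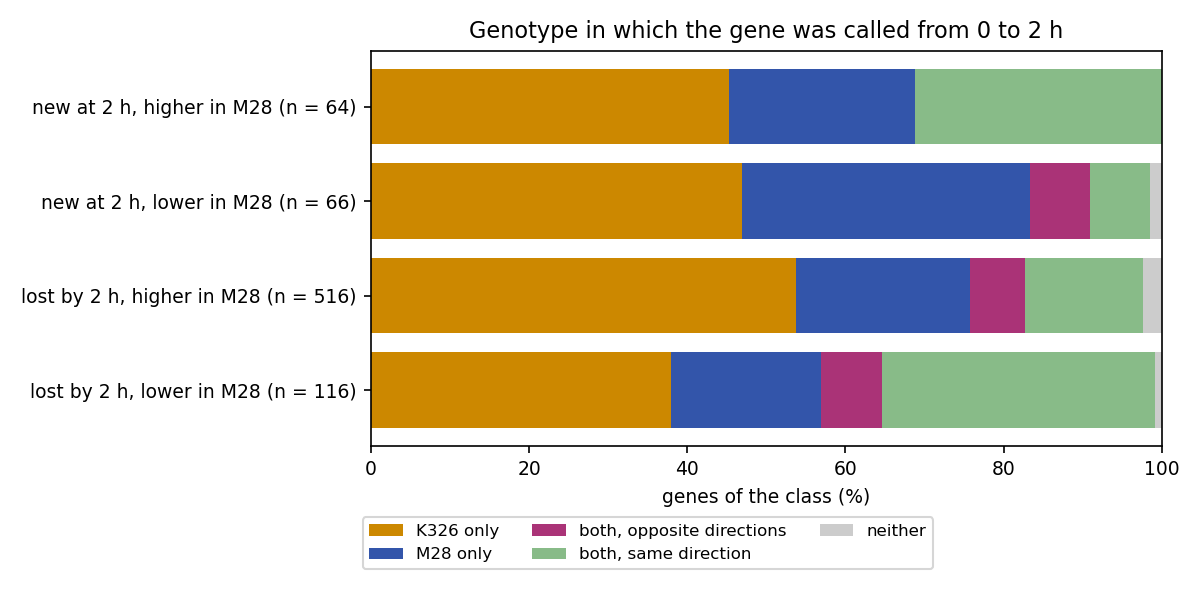
Share of genes (%) of each class by the genotype in which a change from 0 to 2 h was called, for the differences new at 2 h and lost by 2 h, with n genes beside each bar. In all 4 classes the genes called in K326 alone outnumber those called in M28 alone (29 against 15, 31 against 24, 277 against 114 and 44 against 22). More of all tested genes, too, were called in K326 (34.5%) than in M28 (24.1%). The same libraries chose the classes, and whether the excess goes beyond that of all genes was not tested.

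Nitab4.5_0000300g0100 had the course most frequent among the lost genes that were higher in M28, a rise in K326 alone. It had 31.9, 42.0 and 37.2 FPKM in M28 at 0 h and 5.31, 5.99 and 8.16 FPKM in K326. At 2 h the values were 33.2, 42.1 and 35.01 FPKM in M28 and 36.5, 39.7 and 30.1 FPKM in K326, and the genotypes overlapped. The level in M28 was the same before and at 2 h within its spread (log2 change -0.01, SE 0.177), and K326 rose by 2.29 (SE 0.177, adjusted p = 1.94e-10) to meet it, with an interaction of -2.30 (SE 0.25, adjusted p = 1.6e-05). At 1 h M28 stood lower, at 21.2 ± 2.87 FPKM (SD, n = 3).

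Nitab4.5_0000044g0100 took another course, a called fall in M28, and its difference was no longer called at 2 h. It had 35.3, 40.6 and 42.7 FPKM in M28 at 0 h and 12.9, 14.7 and 9.31 FPKM at 2 h (log2 change -1.63, SE 0.296, adjusted p = 0.000167). In K326 it had 2.91, 5.91 and 6.82 FPKM at 0 h and 6.25, 12.6 and 5.01 FPKM at 2 h, with no called change. The interaction was -2.12 (SE 0.418, adjusted p = 0.0033). M28 was still higher on average at 2 h (log2 difference 0.64, SE 0.296, adjusted p = 0.111), and at 1 h the difference was called (0.96, adjusted p = 0.0122). At 4 h it was called again (1.52, adjusted p = 0.000309), with both genotypes at lower levels.

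Among the genes that were lower in M28 before drought, Nitab4.5_0003410g0020 came near the level of M28 through a fall in K326. It went in K326 from 19.1, 23.8 and 25.3 FPKM at 0 h to 1.96, 2.50 and 2.15 FPKM at 2 h (log2 change -2.88, SE 0.224, adjusted p = 2.22e-10). In M28 it had 2.31, 2.14 and 2.78 FPKM at 0 h and 1.31, 2.10 and 0.852 FPKM at 2 h, so that the groups came to overlap. The interaction was 2.36 (SE 0.317, adjusted p = 9.95e-05). The log2 difference was -0.43 at 2 h (adjusted p = 0.157) and was called again at 4 h (-1.23, adjusted p = 0.000153).

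Nitab4.5_0004482g0050 fell in both genotypes from unequal starting levels. It had 29.5, 50.04 and 77.1 FPKM in K326 and 9.55, 6.78 and 9.21 FPKM in M28 at 0 h, and 1.37, 0.838 and 3.34 FPKM against 1.06, 1.75 and 1.75 FPKM at 2 h. The interaction was 2.30 (SE 0.555, adjusted p = 0.0139), and its adjusted p was 0.224 with a pseudocount of 0.1 FPKM.

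At the times whose contrasts did not choose them, part of the lost genes were called in their direction of 0 h. Of the 66 lost genes that had been at least 2-fold higher in M28 at 0 h, 43, 26 and 18 (65.2, 39.4 and 27.3%) were called higher at 1, 4 and 8 h, beside 31.9, 28.4 and 21.5% of all genes, and their median differences were 0.56, 0.33 and 0.34, beside 0.20, 0.17 and 0.13 for all genes. Of the 34 that had been at least 2-fold lower, 18, 15 and 10 (52.9, 44.1 and 29.4%) were called lower at these times, beside 7.11, 8.19 and 6.96% of all genes. Their medians were -0.51, -0.49 and -0.45, beside the same 0.20, 0.17 and 0.13 for all genes.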

How the data were processed

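The authors deposited 1 table of FPKM values with 1 column per library and replicates not pooled, and the unit was read from the name of the table and from its column totals, which differ between libraries. FastQC, Trimmomatic, HISAT2 and featureCounts were used per the submitters' processing notes, and their settings, the genome build and the FPKM step are not given in the sources used here. Groups, times and replicate numbers came from the sample titles. Values were used as deposited. All 30 libraries entered one limma 3.58.1 fit of 10 groups in R 4.3.3 on log2(FPKM + 1), with a mean-variance trend and Benjamini-Hochberg adjustment over 19599 genes (mean of at least 1 FPKM; 15920 were below it). A call needed an adjusted p below 0.05 and a 2-fold call a log2 difference of at least 1. Interval estimates from counts were not made, since depth is unknown.

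Named genes were the first 2 per direction in each class (present, new, lost) with a 2-fold difference, a higher group averaging 5 FPKM or more and libraries that did not overlap (at 2 h; at 0 h for lost genes), ranked by the 2 h difference for present genes and by the interaction otherwise. The comparison, the classes and these rules were chosen with earlier results of these data known. Gene lists could not be matched to IDs and were not tested. In simulated data of 19599 genes, 93.5% of 200 genes changed 2-fold were called at 2 h, and 88% of the present and 85% of the new ones were classed as such. The changed genes were drawn from those with a mean log2 level above that of 5 FPKM, with independent normal noise. In the data many more genes were called, and only 30 of the 130 new genes reached 2-fold. The simulated rates therefore do not apply to smaller differences or to genes of lower level. Alternatives were another pseudocount, 2 filters, 3 scalings, fits of fewer libraries, a replicate block, no trend and each 0 and 2 h library left out. One fit of fewer libraries left out M28 8 h replicate 3, treated as of low depth although the depth in reads is unknown. It gave 5544 genes called at 2 h, 1235 called interactions and 716 lost genes. That library was kept in the main fit and in the values at 8 h.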

Additional observations from a re-analysis of the deposited data

Results flagged for a closer look

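By a test of the difference itself, the change from 0 to 2 h differed between the genotypes for 1090 genes. Of the named genes, the difference of the log2 changes, M28 minus K326, was 3.03 for Nitab4.5_0001461g0120, 2.89 for Nitab4.5_0001461g0050, -2.03 for Nitab4.5_0002102g0030 and -1.89 for Nitab4.5_0003883g0030, whose differences were new at 2 h. It was -2.30 for Nitab4.5_0000300g0100, -2.12 for Nitab4.5_0000044g0100, 2.36 for Nitab4.5_0003410g0020 and 2.30 for Nitab4.5_0004482g0050, whose differences were lost by 2 h. For Nitab4.5_0000159g0130 it was 1.11, which is the change in M28 alone, since this gene was listed at 0 in K326 at both times.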

How the results depend on the processing

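The share of called genes higher in M28 at 2 h was 72.2%, against 47.8% (median-of-ratios scaling), 54.2% (quantile normalization), 83.2% (equal totals) and 68.5% (only the 0 and 2 h libraries fitted). Lost genes numbered 390 after quantile normalization. Demanding the same direction under all 4 scalings left 3254 of the genes called at 2 h, 1917 of those present at 0 h, 26 of the new and 179 of the lost ones, and 534 of those called 2-fold. With single libraries left out, the share ran from 70.7 to 74.2%, interaction calls from 646 to 1480, lost genes from 353 to 862 and new genes from 82 to 153. The causes were not tested. The numbers of genes called at 2 h, called 2-fold and present at 0 h stayed within 1.5 times of their values in every alternative of a single setting. Same-numbered libraries mostly did not deviate together (correlations from -0.298 to 0.150, over 0.1 in 2 of 21 pairs). Both of these pairs were of M28 with K326 at 2 h, replicate 1 (0.110) and replicate 3 (0.150). With the replicate block 5237 genes were called at 2 h and Nitab4.5_0001461g0120 had an adjusted p of 0.0576. Named genes kept their direction in 262 of 262 fits, counting fits in which they were tested, and their call in 244. With a mean of at least 5 FPKM required, Nitab4.5_0001461g0120 and Nitab4.5_0003410g0020 were not tested. Depth is unknown, so low genes have unknown counting error. The size of present differences and the classes under all 4 scalings were examined after seeing the data.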

Other observations

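The largest difference at 2 h that could not be placed as present or new was that of Nitab4.5_0000605g0240, chosen after its values were seen. It had 17.2, 19.9 and 15.1 FPKM in the M28 libraries at 2 h and was listed at 0 in the K326 libraries. At 0 h it had 1.16, 0.849 and 0.737 FPKM in M28 and was again listed at 0 in K326. The M28 libraries had 81.8, 1.01 and 6.53 FPKM at 4 h and 161.6, 36.9 and 9.35 FPKM at 8 h, a wide spread, while K326 reached at most 3.85 FPKM, at 8 h. The interaction had an adjusted p of 0.0874 in the fit of all 30 libraries, whose spread includes these values, and of 9.91e-06 with the 0 and 2 h libraries alone. In that smaller fit its difference at 0 h was called as well (adjusted p = 0.00024), so the gene was present there and not new. In the smaller fit 195 genes were new, 93 of them among the 130 and 73 among the 1206 that could not be placed. Among the lower genes, Nitab4.5_0000402g0170, chosen in the same way, had 20.4, 20.7 and 34.7 FPKM in K326 at 2 h and 6.82, 0.124 and 0.269 FPKM in M28, with an adjusted p of 0.115 for the interaction.

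Most genes with a 2-fold difference at 2 h had no neighbour with a 2-fold difference in the same direction, but a larger share had one than among all tested genes. Of the 379 higher genes with another tested ID beside them in the scaffold numbering, 42 (11.1%) had a neighbour that was also called at least 2-fold higher, and 3.25% of all tested genes had such a neighbour. Of 251 lower genes, 22 (8.76%) had a lower neighbour, beside 2.17% of all tested genes. The longest run was of 5 consecutive tested IDs lower in M28, with differences from -2.73 to -1.03 at 2 h, of which 4 were present at 0 h and 1 was new. The scaffold field shared by Nitab4.5_0001461g0050 and Nitab4.5_0001461g0120 held another new gene, Nitab4.5_0001461g0070, higher in M28 by 1.34 at 2 h and chosen after its values were seen, and these were 3 of its 7 tested genes. The 130 new genes lay on 122 scaffolds, and 3 was the most on any of them. Whether neighbours are copies that share reads was not tested.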
